A study of Mus musculus with 4 samples.

Results

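Pancreatic ductal adenocarcinoma arises through a small set of recurrently altered genes, and the NFIC peaks of the normal mouse pancreas were examined here at 9 of them. These were the tumour suppressor genes *Trp53*, *Cdkn2a*, *Smad4*, *Tgfbr2*, *Rnf43*, *Arid1a* and *Brca2*, and the oncogenes *Myc* and *Egfr*. Members were the peaks whose assigned gene, the gene with the nearest transcription start site (TSS) in the annotation that the authors deposited, was one of these 9. By this rule, 14 of 15824 peaks belonged to 6 of the 9 genes. *Egfr* had 5 assigned peaks, *Arid1a* and *Smad4* had 3 each, and *Myc*, *Cdkn2a* and *Tgfbr2* had 1 each. *Trp53*, *Rnf43* and *Brca2* had none.

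The peaks came from chromatin immunoprecipitation and sequencing (ChIP-Seq) of pancreas from wild-type mice of mixed strain, 8 to 12 weeks old in the deposited design text, with an antibody against NFIC. There were 3 NFIC libraries and 1 library of input DNA without antibody. The deposited result was 1 merged peak list on the mm10 genome, with no value for a single library. No replicate error could therefore be given, no difference was tested, and the depth behind each peak is unknown. The peak score is the authors' value for each peak on a scale that is not given in the sources used here, and it was used only to rank peaks within the list. The tissue was whole pancreas, in which acinar cells prevail. All 8 acinar markers examined (among them *Ptf1a* and *Cpa1*) had an assigned peak, as did 3 of 5 duct markers and 0 of 5 islet markers, counts to be set against the 37.2% of protein-coding genes that had one. The authors had already reported NFIC binding at *Cpa1*, *Cela2a*, *Ctrb1* and *Bhlha15*, so the acinar count is not an independent check. A peak at a marker gene is not a measure of the share of a cell type.

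NFIC belongs to the NFI (nuclear factor I) transcription factors, proteins that bind DNA as dimers at a palindrome of TGGC and GCCA arms separated by a short spacer. A peak marks a place where the protein was enriched on chromatin, and does not tell whether the neighbouring gene is transcribed or changed by it. The driver genes fall into a few well-known pathways of this tumour: the p53 and INK4/ARF brake on the cell cycle, the growth-inhibitory TGF-beta pathway that ends in SMAD4, receptor tyrosine kinase signalling above RAS, WNT receptor turnover, chromatin remodelling by the SWI/SNF complex, MYC, and repair of DNA breaks by homologous recombination.

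The sequences that carry the results are those of the *Arid1a* peaks and of the NFI sites at the driver genes. The 3 *Arid1a* peaks are shown whole, because they include the highest score among the member peaks and the member promoter peak. They are the plus strand of mm10, and capitals mark an exact NFI site (TGGCNNNNNGCCA, a palindrome, so that both strands read alike) in the only peak of the 3 that has one. The peaks lie at chr4:133774695-133774867 (score 17.5, intergenic), chr4:133754493-133754665 (score 9.96, promoter) and chr4:133813215-133813387 (score 8.17, an intergenic CpG island), in this order.
Arid1a upstream: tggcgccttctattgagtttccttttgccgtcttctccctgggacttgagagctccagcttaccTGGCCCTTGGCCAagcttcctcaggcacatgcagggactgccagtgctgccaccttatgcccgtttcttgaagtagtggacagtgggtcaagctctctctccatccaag
Arid1a promoter: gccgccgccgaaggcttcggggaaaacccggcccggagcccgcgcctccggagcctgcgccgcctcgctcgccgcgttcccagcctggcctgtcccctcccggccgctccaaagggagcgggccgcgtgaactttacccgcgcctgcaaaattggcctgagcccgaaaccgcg
Arid1a CpG island: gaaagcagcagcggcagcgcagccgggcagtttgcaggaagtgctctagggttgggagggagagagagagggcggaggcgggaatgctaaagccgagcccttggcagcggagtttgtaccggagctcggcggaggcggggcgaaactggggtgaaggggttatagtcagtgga
The GC content of the 3 peaks was 55.5%, 74% and 63.6% over their 173 bp. The promoter peak held 25 CpG dinucleotides, against 3 in the upstream peak that carries the site.

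NFI sites were sought as the 8 fixed bases of the palindrome, with at most 1 mismatch, in the 200 bp centred on each peak. The windows below are 61 bases of the plus strand with the site in capitals. They are shown because they set the sites of the assigned peaks of *Tgfbr2* and *Myc* beside those of peaks that lie at *Rnf43*, *Arid1a*, *Cdkn2a*, *Egfr* and *Myc* but were assigned to other genes. Substitutions count from 1 at the first base of the site, with the base of the palindrome first and that of the site last.
Tgfbr2 intron 5, chr9:116098953-116099125: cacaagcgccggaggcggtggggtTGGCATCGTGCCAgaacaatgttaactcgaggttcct
Myc upstream, chr15:61939428-61939600: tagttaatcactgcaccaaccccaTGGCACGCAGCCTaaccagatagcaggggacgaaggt
Rnf43 intron 2, chr11:87689510-87689682: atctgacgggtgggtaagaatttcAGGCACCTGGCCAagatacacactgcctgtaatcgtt
Arid1a intron 12, chr4:133688732-133688904: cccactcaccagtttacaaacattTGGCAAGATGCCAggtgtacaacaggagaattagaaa
Arid1a intron 11, chr4:133690376-133690548: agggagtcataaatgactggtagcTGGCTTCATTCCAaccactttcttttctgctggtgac
Cdkn2a upstream, chr4:89360428-89360600: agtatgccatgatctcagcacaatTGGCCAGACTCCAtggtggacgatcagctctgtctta
Egfr intron 12, chr11:16877802-16877974: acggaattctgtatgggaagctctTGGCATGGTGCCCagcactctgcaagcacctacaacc
Myc downstream in Pvt1, chr15:62079734-62079906: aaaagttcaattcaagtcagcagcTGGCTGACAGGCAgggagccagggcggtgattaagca
The sites in *Tgfbr2* intron 5 and *Arid1a* intron 12 were exact. The others had 1 substitution, which was A13T upstream of *Myc*, T1A in *Rnf43*, G10T in *Arid1a* intron 11 and upstream of *Cdkn2a*, A13C in *Egfr* and C11G in *Pvt1*.

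The first question was which driver genes carried NFIC peaks. With 6 of 9 genes, the share with an assigned peak was 66.7% (95% Wilson interval 35.4% to 87.9%), beside 37.2% of 21000 protein-coding genes, a value inside the interval. The interval covers counting error over genes only. At least 5 assigned peaks, the number at *Egfr*, were found at 1.72% of protein-coding genes, and at least 3, as at *Arid1a* and *Smad4*, at 6.38%. These 3 genes held 11 of the 14 peaks.

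The scores of the member peaks ran from 3.98 at *Tgfbr2* to 17.5 at *Arid1a*, in a list that ran from 3.39 to 68.1. Their median was 6.175, beside 6.57 over all peaks, and 7 of the 14 (50%) lay in the upper 2 quartiles of score, beside 51.6% of all peaks. All 7 were peaks of *Arid1a*, *Smad4* and *Myc*, whereas the peaks of *Egfr*, *Cdkn2a* and *Tgfbr2* lay in the lower 2 quartiles. Scores were recorded in steps, so that ties are frequent. The focus ratio, the fraction of a peak's tags that lie close to its centre, had a median of 0.705 over the member peaks (0.552 to 0.78) and of 0.684 over all peaks. By genomic class, 7 of the 14 peaks (50%) were intronic, 3 (21.4%) intergenic and 2 (14.3%) at a promoter-TSS. Over all peaks these shares were 40.8%, 30.6% and 20.7%. The remaining peaks were 1 at a transcription termination site and 1 in a 3′ UTR, classes that held 1.83% and 1.13% of all peaks. By distance, 9 of the 14 lay over 10 kb from the assigned TSS and 4 lay upstream of it. Over all peaks, 50.9% lay over 10 kb away and 44.5% upstream.

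**Figure D1:**
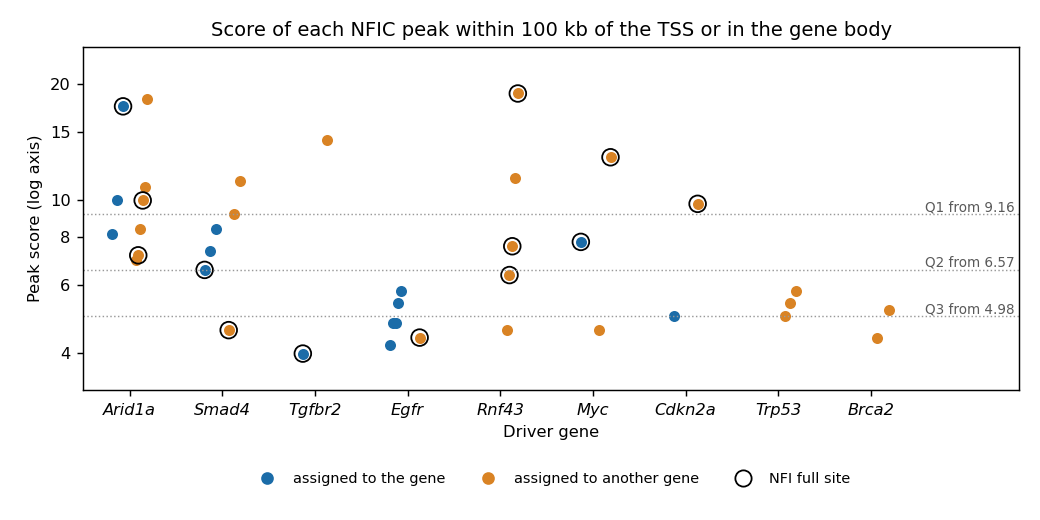
Score of each NFIC peak (log axis) at the 9 driver genes, for peaks assigned to the gene (blue) and peaks in its body or within 100 kb of its TSS that were assigned to another gene (orange); black rings mark an NFI full site and dotted lines the lower bounds of the quartiles of all peaks. The assigned peaks of *Egfr* sit between 4.18 and 5.78, below all assigned peaks of *Arid1a*, of which 1 reaches 17.5.

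Promoter peaks were those from -1000 to 0 bp of the TSS. Such a peak was assigned to 1 of the 9 genes (11.1%, 95% Wilson interval 1.99% to 43.5%), beside 10.7% of protein-coding genes. That gene was *Arid1a*. On both sides of the TSS, 3 of the 9 genes had a peak within 1000 bp, beside 20.4% of protein-coding genes. They were *Smad4*, *Egfr* and *Arid1a*, and the GC content of the 200-bp windows was 72.5%, 69% and 75.5%. None of these 3 peaks held an NFI full site. Over the whole list, 39% of peaks within 1000 bp of a TSS had such a site, against 56.7% of the other peaks, and their median GC content was 65% against 54% over all peaks.

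An NFI full site was present in 4 of the 14 member peaks (28.6%, 95% Wilson interval 11.7% to 54.6%), beside 51.8% of all peaks, a value inside the interval. The site was exact in 3 of them (21.4% of the 14, 95% Wilson interval 7.57% to 47.6%), beside 13.4% of all peaks, also inside the interval. These intervals treat the peaks as independent, although *Arid1a*, *Smad4* and *Egfr* held 11 of the 14. The 4 peaks with a full site belonged to *Arid1a* (upstream), *Smad4* (3′ UTR), *Tgfbr2* (intron 5) and *Myc* (upstream). Over all peaks the site lay a median of 24 bp from the peak centre. At *Arid1a* and *Smad4* it lay 16 bp and 21 bp from the centre, and at *Tgfbr2* and *Myc* 71 bp and 77 bp. A single arm of the site with its usual neighbours (TTGGCA, either strand) was found in 5 of 14 member peaks (35.7%), beside 33.7% of all peaks. The words of other transcription factors of the pancreas were searched as well. CAGCTG, an E-box, was found in 1 member peak, in *Egfr* intron 1 (7.14%, beside 21.4% of all peaks). GATAAG was in 0 and CAAGGTCA, a word of the NR5A2 site, in 0, beside 7.74% and 2.04% of all peaks. TGTTTAC of FOX factors was found in 1 peak (3.99% of all peaks), and TGANTCA of AP-1 in 1 (5.26% of all peaks), both at *Smad4*. All words were searched on both strands of the 200-bp windows.

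The nearest-TSS rule leaves out peaks that lie in or near a driver gene but closer to the TSS of a neighbour. When every peak in the gene body or within 100 kb of a TSS was counted, whatever its assigned gene, there were 38 peaks, of which 14 were the assigned ones and 24 had been given to other genes. All 9 genes had such a peak, beside 72.7% of protein-coding genes, whose median was 2 peaks. *Arid1a* had 9, a number reached by 3.95% of protein-coding genes, *Smad4* and *Egfr* had 6, *Rnf43* had 5, *Trp53* and *Myc* had 3, and *Cdkn2a*, *Tgfbr2* and *Brca2* had 2. The 24 peaks had a median score of 7.37, beside 6.57 over all peaks, and 9 of them held an NFI full site, beside 51.8% of all peaks.

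**Figure D2:**
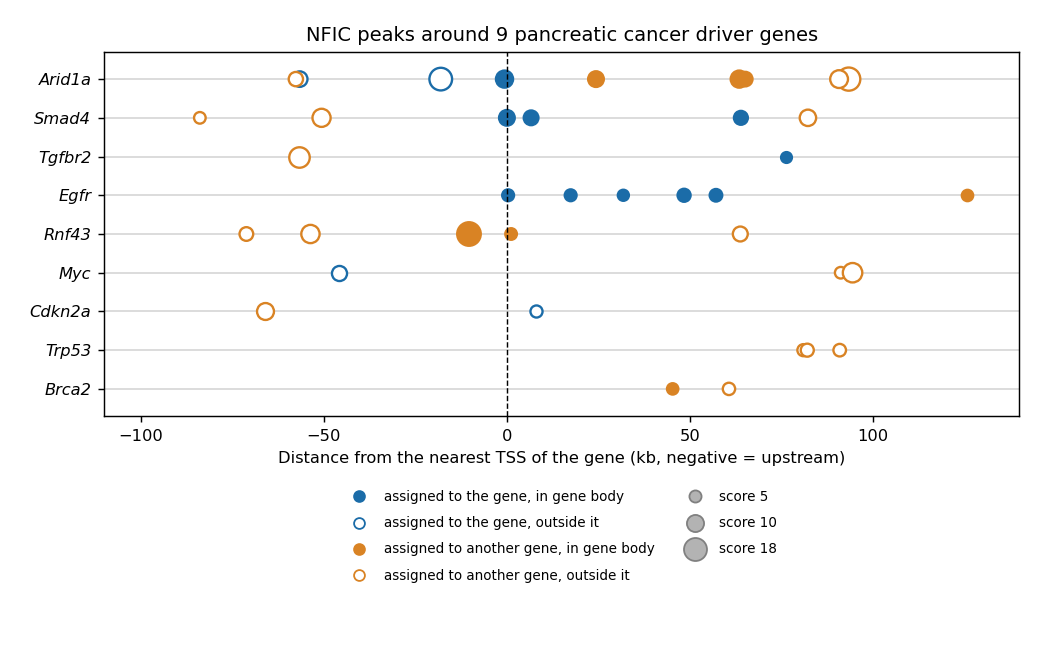
Position of the 38 NFIC peaks in the body or within 100 kb of a TSS of the 9 driver genes, as distance of the peak centre from the nearest TSS of that gene (kb, negative upstream); circle area is proportional to peak score, blue circles were assigned to the gene, orange circles to a neighbour, and filled circles lie in the gene body. *Trp53* has no peak closer than 81.1 kb, whereas *Smad4*, *Egfr* and *Arid1a* have a peak within 1000 bp of it.

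Gene bodies held 17 of these peaks, in 6 of the 9 genes, beside 26.9% of protein-coding genes with a peak in the body. Of the 17, 7 had been assigned to a neighbour. Gene length went together with this count. The 6 genes with a peak in the body were those from 47.9 kb (*Brca2*) to 162 kb (*Egfr*), and the 3 without were those from 5.02 kb (*Myc*) to 20.1 kb (*Cdkn2a*). Among all protein-coding genes within these ranges of length, 47.3% of the longer and 21.2% of the shorter had a peak in the body. These ranges were chosen after the values were seen, and the part of length in the count was not tested.

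Within the TGF-beta pathway, *Smad4*, which encodes the shared SMAD that carries the signal to DNA, had peaks at both ends of the gene and in its first intron. On chromosome 18, the peak at 73703646 to 73703818 had a score of 8.37, higher than 68.7% of all peaks, and was centred 9 bp from the annotated TSS. By the RefSeq TSS the distance was 59 bp, and 95.1% of protein-coding genes had their nearest peak farther away. The second, at 73697039 to 73697211, had a score of 7.37 and lay 6616 bp into the gene, in intron 1 of 11 and on a Charlie1a DNA repeat. The third, at 73639727 to 73639899, had a score of 6.57 and lay in exon 12 of 12, in the 3′ UTR, 63928 bp from the TSS. It was the *Smad4* peak with an exact NFI site. All 3 lay in the second quartile of score. Within 100 kb, a peak in the first intron of *Elac1*, on a CpG island, had a score of 11.2 at -50572 bp, a peak assigned to *Mex3c* had 9.16, and a peak in *Me2*, the gene of a mitochondrial malic enzyme, had 4.58.

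*Tgfbr2*, the gene of the receptor that binds TGF-beta ligand, had 1 peak. It lay in intron 5 of 6, 76324 bp from the TSS, and its score of 3.98 was higher than only 4.26% of all peaks, although it held an exact NFI site. The nearest peak to the *Tgfbr2* TSS was another one, at -56783 bp, which was assigned to *Gm4668*. It had a score of 14.3, higher than 92.8% of all peaks, and no NFI full site. By RefSeq, with protein-coding genes only, this peak and 2 more that were assigned to *Gm4668* had *Tgfbr2* as their nearest gene, with scores of 10.2 at -200758 bp and 3.39 at -349238 bp.

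*Arid1a* encodes the DNA-binding subunit of the BAF form of SWI/SNF, the complex that moves nucleosomes. Its 3 assigned peaks all lay upstream of the annotated TSS. The peak at -21170 bp had the highest score of the member peaks, 17.5, which was higher than 96.6% of all peaks, and held an exact NFI site 16 bp from its centre. The promoter peak at -968 bp had a score of 9.96, higher than 79.1% of all peaks. RefSeq has 2 curated TSSs for *Arid1a*, and this peak lay between them, at -594 bp from the nearer one and inside the first intron of the transcript that starts upstream, where it overlapped 0 exons. The CpG island peak at -59690 bp had a score of 8.17. A second CpG island peak lay 1056 bp farther from *Arid1a*, with a score of 6.97, and was assigned to *Rps6ka1*, the gene of a ribosomal S6 kinase on the other side. Neither held an NFI site.

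The body of *Arid1a* held 3 further peaks that were assigned to neighbours. A peak in intron 1 of 19 had a score of 8.37 and was assigned to the microRNA gene *Mir7227*. Peaks in intron 11 and intron 12 had scores of 9.96 and 7.17 and were assigned to *Pigv*, the gene of a mannosyltransferase of GPI anchor synthesis. Both held an NFI site, printed above. Within 100 kb downstream, *Pigv* itself had peaks of scores 18.3 and 10.8. Among the 38 peaks in the bodies or within 100 kb, the higher of these was exceeded only by the *Rnf43* intronic peak.

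**Figure D3:**
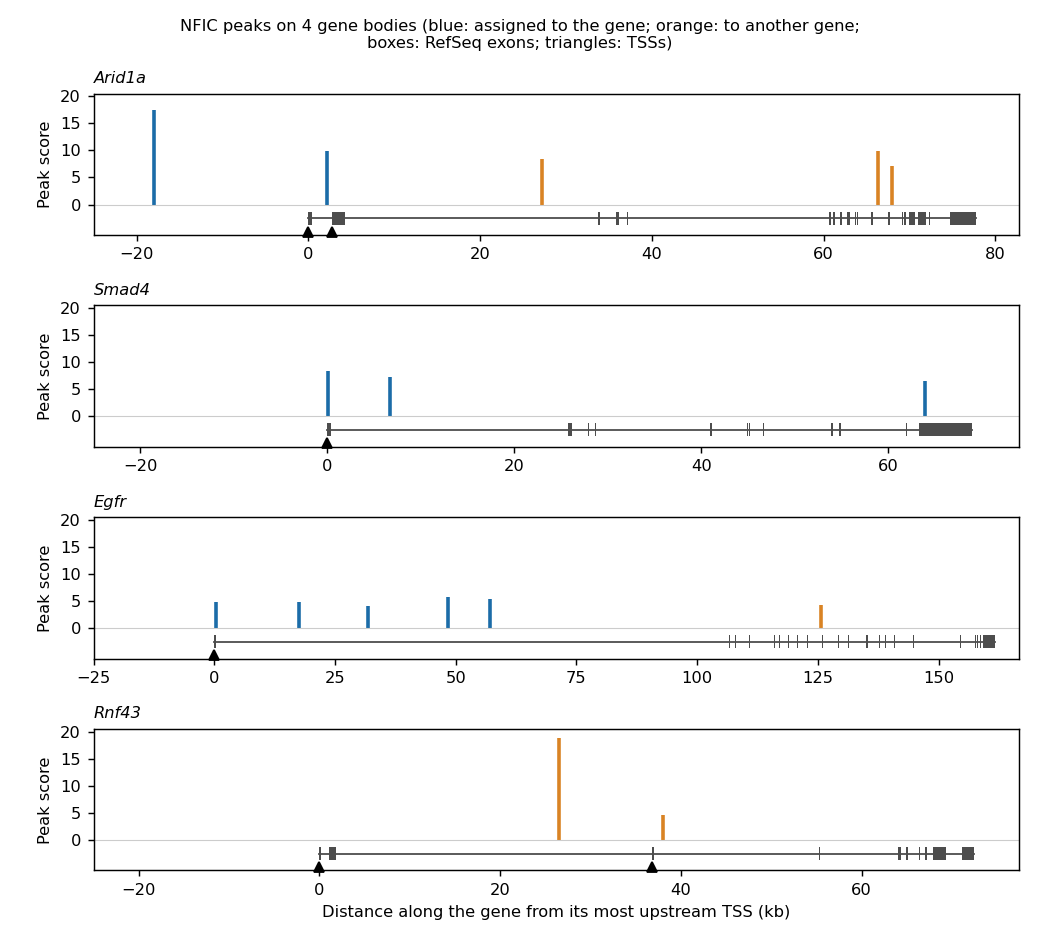
NFIC peaks on the bodies of *Arid1a*, *Smad4*, *Egfr* and *Rnf43*, with the distance along the gene from its most upstream TSS (kb) on the x axis and the peak score as the height of each line; blue lines were assigned to the gene and orange lines to a neighbour, boxes are RefSeq exons and triangles TSSs. The 5 assigned *Egfr* peaks stand in the first intron at low scores, and the peak of score 18.9 stands inside *Rnf43* between its 2 TSSs.

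*Egfr*, which encodes the epidermal growth factor receptor, had 5 assigned peaks on chromosome 11, and all lay in intron 1 of 27 by the authors' annotation. Their distances downstream of the TSS were 391, 17474, 31865, 48458 and 57167 bp, and their scores in this order 4.78, 4.78, 4.18, 5.78 and 5.38. The highest score was higher than 36.3% of all peaks and the lowest than 8.34%. *Egfr*, the longest of the 9 genes, thus had the largest number of assigned peaks at low scores. The peak nearest to the TSS was on a CpG island and overlapped an exon of *Egfr* in RefSeq, and that at 31865 bp on an L3 repeat. None held an NFI full site. A further peak, of score 4.38, lay in intron 12 of 27 and was assigned to the non-coding gene *Eldr*. That peak did hold a site.

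*Myc*, the gene of a transcription factor that drives growth, had 1 assigned peak at chr15:61939428-61939600, at -45827 bp. Its score of 7.77 was higher than 63% of all peaks, and it held an NFI site near its edge. Downstream, *Pvt1*, a non-coding gene next to *Myc*, had 5 peaks. Those at 91243 and 94479 bp from the *Myc* TSS had scores of 4.58 and 12.9, and that at 121385 bp had 19.1. Farther on, 11 peaks up to 804442 bp from *Myc* were assigned to *H2afy3*, and 1 of them, at 221303 bp, had a score of 23.1. With only protein-coding genes of RefSeq as candidates, all 17 of these peaks had *Myc* as the nearest gene. The distance to a TSS does not tell which of these genes, if any, a peak acts on.

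*Rnf43* encodes a ubiquitin ligase that removes WNT receptors from the cell surface. It had no assigned peak, but 2 peaks lay in its body. That in intron 2 of 9, at chr11:87689510-87689682, had a score of 18.9, the highest of the 38 peaks, and was higher than 97.6% of all peaks. Its NFI site was 3 bp from the centre. The second lay 1201 bp downstream of an *Rnf43* TSS, with a score of 4.58 and no site. Both were assigned to *1110028F11Rik*, a non-coding transcript within the gene, and by RefSeq both had *Rnf43* as the nearest protein-coding gene. Around the gene, peaks of score 6.37 at the promoter of *Mtmr4*, 11.4 near *Hsf5* and 7.57 in *Tspoap1* lay within 100 kb.

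*Trp53*, which encodes p53, had no peak in its body or within 50 kb. The nearest, at 81059 bp, had a score of 4.98, lay in a SINE repeat and was assigned to *Mpdu1*. Another *Mpdu1* peak had a score of 5.78, and a CpG island peak in *Eif4a1*, the gene of a translation initiation helicase, had 5.38. All 3 were in the third quartile, and none held an NFI full site. The nearest peak was farther away for 31.4% of protein-coding genes, and the median distance to the nearest peak over all of them was 29.6 kb.

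*Cdkn2a* encodes the cell cycle inhibitor INK4A and, in another reading frame, the MDM2 inhibitor ARF. Its single peak, at chr4:89274146-89274318, was at the end of the gene, 7960 bp from the TSS of the INK4A transcript. It had a score of 4.98, higher than 23.6% of all peaks, and no NFI full site. The focus ratio of 0.78 was the highest of the member peaks. On the other side, a peak at -65895 bp had a score of 9.76 and an NFI site, and was assigned to *Cdkn2b*, which encodes the related inhibitor INK4B.

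*Brca2*, whose protein acts in the repair of broken DNA by homologous recombination, had no assigned peak. In its last intron, 45337 bp from the TSS, lay a peak of score 4.38 that was assigned to *N4bp2l1*, and a second *N4bp2l1* peak of score 5.18 lay at 60719 bp. Neither held an NFI full site. The nearest peak was farther away for 42% of protein-coding genes.

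The same question was put to 82 partners of the driver genes in 8 lists. An assigned peak was present at 50 of them (61%, 95% Wilson interval 50.2% to 70.8%), beside the 37.2% of protein-coding genes given above. A promoter peak was present at 13 (15.9%), beside 10.7%. The promoter window ends at the TSS, so peaks just downstream of it were left out of this count. Among those left out were peaks of *Smad3* (score 13.1 at 8 bp), *Mdm2* (5.38 at 8 bp) and *Sf3b1* (4.78 at 36 bp). The lists were not counted with a window on both sides of the TSS. They were chosen with earlier results of these data known, so the shares of 61% and 15.9% are not those of an unbiased choice of genes. The part of gene length in them was not tested. Shares ran from 3 of 10 genes of homologous recombination to 9 of 10 of the MYC network. These 9, and so the 50, include *Pvt1*, a non-coding gene whose peaks near *Myc* are given above. With assignment to the nearest coding TSS of RefSeq, 8 genes of the MYC list had a peak. The lists hold 10 to 12 genes, and for most of them the interval includes the share over all genes. The exceptions were the TGF-beta list, the MYC list and the list of other pancreatic tumour genes. For the last, the lower bound was 39.7%, and 4 genes had a peak in the upper 2 quartiles of score. The 8 intervals were not adjusted for their number. Median peak scores ran from 5.58 (other pancreatic tumour genes) to 7.97 (TGF-beta), beside 6.57 over all peaks. The p53, EGF receptor, WNT and SWI/SNF lists also lay below 6.57, and the MYC and homologous recombination lists (7.77 and 7.17) above it. The median of the homologous recombination list rests on only 3 peaks, and that of the p53 list on 7.

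**Figure D4:**
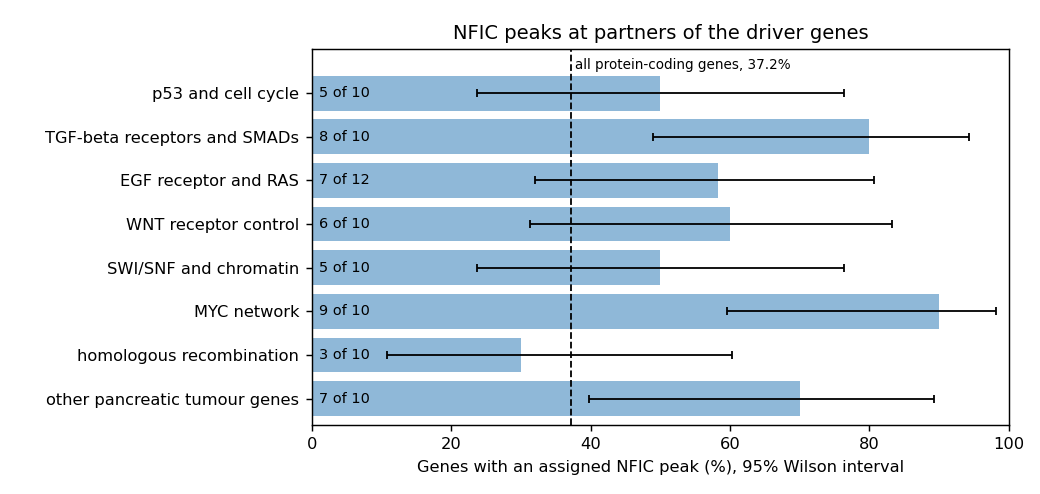
Share of genes with an assigned NFIC peak (%) in 8 lists of partners of the driver genes, with 95% Wilson intervals as error bars and the number of genes in each bar; the dashed line is the share over all protein-coding genes, 37.2%. The MYC network (9 of 10) and the TGF-beta list (8 of 10) have the highest shares and homologous recombination (3 of 10) the lowest. The MYC network includes the non-coding gene *Pvt1*.

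In the TGF-beta list, 8 of 10 genes had 33 peaks with a median score of 7.97, beside 6.57 over all peaks. Of the 33 peaks, 18 held an NFI full site, beside 51.8% of all peaks. *Acvr2a*, an activin receptor gene, had 8 peaks, the highest with a score of 16.7 at -409518 bp, and *Acvr1b*, the gene of a type I activin receptor, had a promoter peak of score 6.17 at -178 bp. *Tgfb1* and *Bmpr2* had none. In the MYC network, 9 of 10 genes had 26 peaks with a median score of 7.77, also above the 6.57 of all peaks. *Max*, the gene of the obligate partner of MYC, had a promoter peak of score 8.17 at -159 bp, *Mxd1*, which encodes an antagonist of MYC at the same partner, had one of 4.38 at -253 bp, and *Fbxw7*, which encodes a ubiquitin ligase receptor for MYC, had one of 3.98 at -983 bp. The highest score in this list, 25.5, was 131481 bp from the TSS of *Mycn*. The gene without a peak was *Mycl*.

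Of the EGF receptor and RAS list, 7 of 12 genes had a peak. The ligand genes *Hbegf* and *Tgfa* had promoter peaks of score 20.1 at -168 bp and 8.76 at -55 bp, each with an NFI full site. The genes *Nras*, *Braf*, *Nf1*, *Areg* and *Erbb3* had none. Among p53 and cell cycle genes, 5 of 10 had a peak. *Cdkn1b*, the gene of the cell cycle inhibitor p27, had a promoter peak of score 11.4 at -274 bp with a site, whereas *Cdkn1a*, *Cdk4*, *Cdk6*, *Rb1* and *E2f1* had none.

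In the list of WNT receptor control, 6 of 10 genes had a peak, with a promoter peak of score 4.18 at *Lrp6* (-165 bp), a WNT co-receptor gene, and a peak of score 17.5 at 60292 bp from *Axin2*, the gene of a negative regulator of the pathway. *Znrf3*, the close relative of *Rnf43*, had none. Of SWI/SNF and chromatin genes, 5 of 10 had a peak. *Arid1b*, the paralogue of *Arid1a*, had 10 peaks, with the highest score, 26.3, at -126799 bp, and *Arid2* had a promoter peak of score 5.98 at -716 bp. In the list of homologous recombination, *Bard1*, the gene of the partner of BRCA1, had a promoter peak of score 7.17 at -75 bp, and *Sem1*, whose small protein binds BRCA2, an intronic peak of 11.2. *Brca1*, *Palb2*, *Atm* and 4 further genes had none. Of the other pancreatic tumour genes, 7 of 10 had a peak, among them *Map2k4* (3.59 at -54 bp) and *Msh6* (4.58 at -108 bp) at the promoter and *Rreb1* with 18.9 at -159342 bp. The peak of *Sf3b1*, with 4.78 at 36 bp, lay downstream of the TSS and so outside the promoter window.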

How the data were processed

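NFIC ChIP-Seq of mouse pancreas (3 libraries) and input DNA (1 library) was represented by the merged peak list that the authors deposited. The submitters' processing notes name BWA, Picard and MACS2 on mm10, with versions not given in the sources used here. Per the file headers the list was annotated with HOMER. The paper also names HOMER for the merging of replicates and for peak calling, so which program called these peaks is not clear. The peak score is the authors' score on an unstated scale. The focus ratio is a fraction deposited per peak. Distances to the TSS, classes and genes are other deposited columns. No column held a single library (0 such columns).

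Peaks were counted per gene, matched by Entrez identifier to 21000 protein-coding genes with curated transcripts in RefSeq (GRCm38.p6, the coordinates of mm10). Sequences were read from that assembly. The site search and the counting of peaks near a TSS were tested on simulated data. Wilson intervals are at 95%. No test was made, since there is 1 merged list. The members and the gene lists were chosen with earlier results of these data known. Genes named were all 9 members, the neighbours given peaks at them, and per list up to 3 genes with the highest promoter peak scores and the gene with the highest score. Some genes that this rule selects are not reported here. Other genes named, including those without a peak, were chosen after their values were seen. Alternatives varied score quartiles, annotation, promoter window, site rule, distance and merging. Python 3.11.15, pandas 2.3.3, numpy 2.4.6, scipy 1.17.1 and pysam 0.24.0 were used.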

Additional observations from a re-analysis of the deposited data

How the results depend on the processing

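Of 41 values recomputed under other settings, 23 stayed within the tolerance, which was 1.5 times for counts and no change for the median score, and 18 moved. Keeping the upper 2 quartiles of score left 3 members with a peak and 7 peaks with a median score of 8.17, and the highest quartile left 1 member (*Arid1a*) and 2 peaks with a median of 13.73, by construction of the filter. Assignment to the nearest coding TSS of RefSeq gave 37 peaks, 17 of them at *Myc*, with a median score of 6.97, above the 6.57 of all peaks where the reported 6.175 was below, and 7 members with a peak, since *Rnf43* was added. Members with a promoter peak rose to 2 with a window from -1000 to 100 bp (*Smad4* added) and to 3 with -1000 to 1000 bp (*Egfr* added). Member peaks with an NFI site were 11 with at most 2 mismatches, where 90.9% of all peaks had one, 2 in windows of 100 bp (39.4% of all peaks) and 7 in windows of 400 bp (58.3%). With no mismatch the members' share lay above that of all peaks (21.4% beside 13.4%), and with 1 below it (28.6% beside 51.8%). In both cases the share of all peaks lay inside the members' Wilson interval, which treats peaks of the same gene as independent. Within 50 kb of a TSS or in the body, 8 of the 9 genes had a peak. Shares over all protein-coding genes were not computed for the 50-kb distance, the quartile filters or the RefSeq assignment. The counts of members and of list genes under these settings therefore have no share beside them. The upper 2 quartiles also moved the counts of 5 pathway lists, which all fell. No paired analysis was possible because the list holds no value per library. Neither a missed peak nor the error of a score can be judged at an unknown depth.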
